A study of Mus musculus with 2 samples.

Results

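The genes described here build cholesterol and fatty acids, together with the genes that control this supply and the pumps that export sterols. The set held 34 named genes, taken as every probe set whose single gene symbol in the platform annotation was on that list. Of the 34, 33 had such a probe set, out of 18193 named genes on the array; Acat2, an acetoacetyl-CoA thiolase, had none and was not analysed here. The 33 genes were read by 79 probe sets, 63 of which lay on both arrays above 36.3, the floor under which signals were treated as unmeasured. All 33 genes were above the floor on both arrays at the probe set used.

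The RNA came from memory T helper 2 (Th2) cells, the CD4 T cells of allergic and anti-parasite immunity. Splenic CD4 T cells of BALB/c mice with the DO11.10 transgenic T cell receptor, specific for an ovalbumin peptide, were purified to above 98% and kept for 6 days with the peptide, 25 U/ml IL-2 and 100 U/ml IL-4. They then spent 30 days in syngeneic BALB/c nu/nu mice. Such hosts lack a thymus and make few T cells of their own, but keep B cells, myeloid cells and stroma. The memory cells taken from the spleen were sorted into an IL-5+ and an IL-5- group, which shared every other condition that the labels state. Each group was 1 array, so the differences below carry no replicate check and no p-value. The age of the mice, the number of recipients, any pooling of RNA, and any restimulation or staining before the sort were not stated in the sources used.

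Cells make cholesterol from acetyl-CoA through mevalonate, isoprenoid diphosphates, squalene and lanosterol, and build fatty acids from the same acetyl-CoA. Both branches are switched on by the sterol regulatory element-binding proteins (SREBPs), membrane-held transcription factors. When sterols run low, SCAP escorts them to the Golgi for cleavage, and INSIG proteins hold them back when sterols are plentiful. The SREBP encoded by Srebf2 mainly drives the sterol branch and the short form encoded by Srebf1 the fatty acid branch. Oxysterols work the other way through the liver X receptors, which induce the exporters Abca1 and Abcg1. In T cells this programme is known to be raised after antigen receptor signalling, when growing cells need membrane.

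Promoter sequence was looked up because many of these genes share control by SREBPs and their partner NF-Y. RefSeq windows from 250 bases before to 50 bases after each annotated start (GRCm38.p6) were held for 26 of the 34 genes, in 32 windows. The 5 windows below, each 5′ to 3′ on the gene's own strand, are those of 3 genes at least 1.5-fold higher in IL-5+ cells (Idi1, Insig1 and Hsd17b7), of Hmgcs1, which holds the sterol element, and of Fasn as the fatty acid counterpart. Capitals mark matches to TCACNCCAC (a sterol regulatory element), CACGTG (an E-box, which SREBPs can also bind) and CCAAT (the NF-Y box) on either strand, so that ATTGG is a CCAAT box read from the other strand.
Idi1, chr13:8885356-8885655, plus strand: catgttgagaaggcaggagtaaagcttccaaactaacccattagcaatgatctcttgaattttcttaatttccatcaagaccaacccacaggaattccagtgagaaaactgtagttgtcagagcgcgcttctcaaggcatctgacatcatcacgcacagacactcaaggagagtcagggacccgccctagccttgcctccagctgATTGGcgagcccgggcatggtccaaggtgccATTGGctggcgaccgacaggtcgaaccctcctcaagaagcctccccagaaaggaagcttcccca
Hmgcs1, chr13:119690101-119690400, plus strand: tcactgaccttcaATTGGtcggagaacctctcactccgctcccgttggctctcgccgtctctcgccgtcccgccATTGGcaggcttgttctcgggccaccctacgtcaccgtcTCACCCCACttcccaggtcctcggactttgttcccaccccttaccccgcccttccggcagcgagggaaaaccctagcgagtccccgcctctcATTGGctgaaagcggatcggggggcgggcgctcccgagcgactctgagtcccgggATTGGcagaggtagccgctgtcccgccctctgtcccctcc
Insig1, chr5:28071162-28071461, plus strand: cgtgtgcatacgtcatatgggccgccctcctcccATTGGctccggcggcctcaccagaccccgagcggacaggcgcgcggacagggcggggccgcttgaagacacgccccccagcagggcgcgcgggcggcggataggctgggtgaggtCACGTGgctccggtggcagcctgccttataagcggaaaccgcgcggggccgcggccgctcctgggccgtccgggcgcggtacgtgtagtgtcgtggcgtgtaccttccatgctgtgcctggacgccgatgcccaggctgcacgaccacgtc
Hsd17b7, chr1:169969156-169969455, minus strand: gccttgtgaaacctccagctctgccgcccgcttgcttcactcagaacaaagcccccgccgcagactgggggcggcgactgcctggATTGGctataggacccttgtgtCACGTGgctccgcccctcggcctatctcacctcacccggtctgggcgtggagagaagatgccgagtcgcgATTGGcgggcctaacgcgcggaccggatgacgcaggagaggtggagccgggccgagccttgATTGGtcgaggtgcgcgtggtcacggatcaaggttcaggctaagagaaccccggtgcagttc
Fasn, chr11:120824498-120824797, minus strand: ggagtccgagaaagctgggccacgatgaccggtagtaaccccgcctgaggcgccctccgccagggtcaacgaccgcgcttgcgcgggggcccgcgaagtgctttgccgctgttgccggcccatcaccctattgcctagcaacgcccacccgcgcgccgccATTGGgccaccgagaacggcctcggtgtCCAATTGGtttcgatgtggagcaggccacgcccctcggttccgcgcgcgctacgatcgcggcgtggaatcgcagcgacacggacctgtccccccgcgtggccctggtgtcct
TCACNCCAC was found in the Hmgcs1 window alone among the 26 genes, from base -137 to -129 before the start; 1.24% of all 32851 RefSeq windows held it. CACGTG stood in the windows of 6 of the 26 genes: Insig1 (from -101), Hsd17b7 (from -143), Sc5d, Dhcr7, Abca1 and Scap. That was 7 of 32 windows (21.9%), against 7.15% of all windows. At their brightest probe sets, Insig1, Hsd17b7 and Sc5d were higher in IL-5+ cells, Dhcr7 and Abca1 were lower, and Scap was level. CCAAT was found for 20 of the 26 genes, which included 14 of 15 sterol branch and 3 of 6 fatty acid branch genes. By window, 21 of 32 (65.6%) held CCAAT, against 37.4% of all windows, and 24 of 32 held GGGCGG, the Sp1 box, against 35.7%. GGGCGG overlapped no marked motif in the 5 windows, whereas in Fasn a CCAAT and an ATTGG overlapped each other. These are letter matches, and base composition was not matched between the members and all windows.

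Read at the brightest probe set of each gene, a group of sterol synthesis genes and their regulator Insig1 was 1.52- to 1.84-fold higher in IL-5+ than in IL-5- cells. It comprised Idi1, Hsd17b7, Insig1, Sqle, Lss and Cyp51. Of the 9 genes of fatty acid synthesis, 8 differed by less than 1.5-fold, and Scd2 was 5.38-fold lower in IL-5+ cells. Abcg1, a sterol exporter, was 3.51-fold lower, and Dhcr7, the last reductase of cholesterol synthesis, was 1.88-fold lower. In bulk RNA such as this, fewer cells that express a gene and less of its RNA per cell cannot be told apart.

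No member reached 2-fold higher, where 2.85% of the 13133 named genes above the floor did, and 2 of 33 were lower by 2-fold or more (4.01% of all). At 1.5-fold, 6 of 33 members were higher, against 7.89% of all genes, and 3 were lower, against 11.9%. Dim probe sets scatter more, and 19 of the 33 members had signals of 500 or more in both groups. Among those 19, 5 were past 1.5-fold on the upper side and none on the lower, where each direction held 4.19% of the 5519 named genes at that brightness. The members were chosen with earlier results of these data known. An excess of members over the share of all genes, here or below, is therefore not independent evidence.

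The error given here is the scatter between probe sets of the same gene, as a standard deviation (SD) of the log2 ratio. It was 0.55 for probe sets with a mean signal under 112.8, 0.37 between 112.8 and 500, 0.21 between 500 and 2000, and 0.13 over 2000. Variation between cell preparations is not part of it. Members above 0 by over 2 such SD were Hmgcs1, Idi1, Sqle, Cyp51, Hsd17b7, Sc5d, Insig1 and Acly, 8 of 33, where 8.04% of all genes measured on both arrays were. The count takes the brightest probe set alone. Measured probe sets of Acly ran from -0.048 to 0.54, and a dimmer one of Sc5d gave -0.44. Dhcr7, Scd2 and Abcg1 lay below 0 by over 2 SD, 3 of 33, against 9.86% of all genes.

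**Figure D1:**
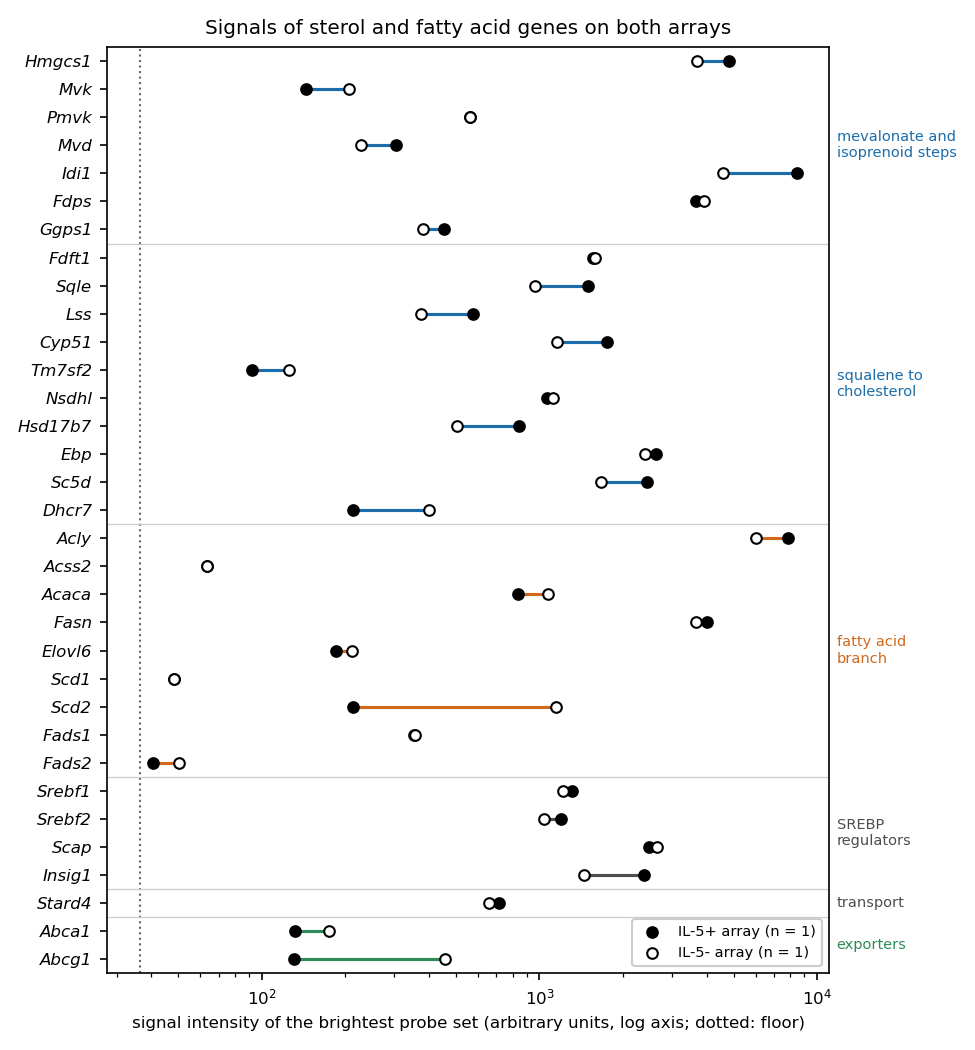
Signal intensity (arbitrary units, log axis) of each gene's brightest probe set on the IL-5+ array (filled) and the IL-5- array (open), 1 array per group, ordered by pathway step. The wide gaps with the filled point on the right are in the sterol steps and Insig1, such as Idi1 at 8435 and 4595; Scd2 and Abcg1 have the widest gaps with the open point on the right. For Pmvk, Acss2, Scd1 and Fads1 the open point covers the filled point.

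In the mevalonate and isoprenoid steps, Hmgcs1 and Idi1 were higher in IL-5+ cells by over 2 SD. The other genes of these steps differed by less than 2 SD. Hmgcs1, the synthase that commits acetyl-CoA to this pathway, had signals of 4817 in IL-5+ and 3708 in IL-5- cells (log2 ratio 0.38, SD 0.13 at that brightness). All 5 Hmgcs1 probe sets were higher in IL-5+ cells, from 0.21 to 0.55, and the probe set used, which carries the _x_at suffix for possible cross-hybridisation, was below their median of 0.48. Idi1, the isomerase that supplies dimethylallyl diphosphate, had 8435 against 4595 (0.88, SD 0.13), the largest upward ratio of the 33 genes. Its second probe set gave 5300 against 3023 (0.81), so both exceeded the scatter between probe sets.

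Mvd, the decarboxylase that makes isopentenyl diphosphate, had 304 against 227 (0.42), and its other probe set gave 0.44; both were just over the SD of 0.37. The kinases before it did not share this direction. Mvk, mevalonate kinase, had 144 against 206 (-0.51, SD 0.37), with -0.17 at its second probe set, within the SD of 0.55. Pmvk, phosphomevalonate kinase, was level at 564 and 561 (0.0080). Fdps, which joins isoprenoid units into farnesyl diphosphate, was also level at 3671 and 3900 (-0.087), less than the SD of 0.13. Ggps1 makes geranylgeranyl diphosphate for protein prenylation rather than for sterols. It stood at 452 against 380 (0.25), while its 4 probe sets ranged from 0.067 to 0.72, so the size of its difference was poorly fixed. Of these 7 genes, 5 lay above 0 and 1 was at least 1.5-fold higher, where 44.5% and 7.89% of all genes were.

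From squalene to cholesterol, 4 of 10 genes were at least 1.5-fold higher in IL-5+ cells (7.89% of all genes) and 1 was lower (11.9% of all genes), and the higher ones ran from squalene epoxidation to the demethylation of lanosterol. Fdft1, squalene synthase at the head of this stretch, was level at 1562 and 1579 (-0.016), with 0.19 at its second measured probe set. Sqle, the squalene epoxidase that limits the rate of the late pathway, had 1495 against 965 (0.63, SD 0.21) at its single probe set. Lss closes the sterol ring to make lanosterol, and had 576 against 374 (0.62, SD 0.37). A second Lss probe set gave 166 against 100.1 (0.73), whereas the last one, which passed the floor only in IL-5- cells, ran the other way at 36.1 against 68.3.

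Cyp51, the lanosterol demethylase, had 1755 against 1157 (0.60, SD 0.21), and 877 against 628 (0.48) at its second measured probe set. Hsd17b7, a ketoreductase of the demethylation complex, had 841 against 503 (0.74, SD 0.21). Its other probe sets measured on both arrays gave 0.58 and 0.30, so the direction was shared and the size was not. Nsdhl works in the same complex and was level, at 1063 and 1118 (-0.072).

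The last steps divided. Sc5d, a sterol desaturase, had 2441 against 1670 (0.55, SD 0.13), but a dimmer probe set gave 215 against 292 (-0.44), the opposite direction. Ebp, a sterol isomerase, differed by about the SD, at 2635 and 2397 (0.14, SD 0.13). Tm7sf2, a sterol reductase, was dim, at 92.2 and 125 (-0.44, within the SD of 0.55). Dhcr7, which finishes cholesterol, had 212 against 400.1 (-0.91, SD 0.37) at a single probe set, the lowest ratio of the sterol branch. Its direction was thus opposite to that of Sqle, Lss and Cyp51 earlier in the same route.

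**Figure D2:**
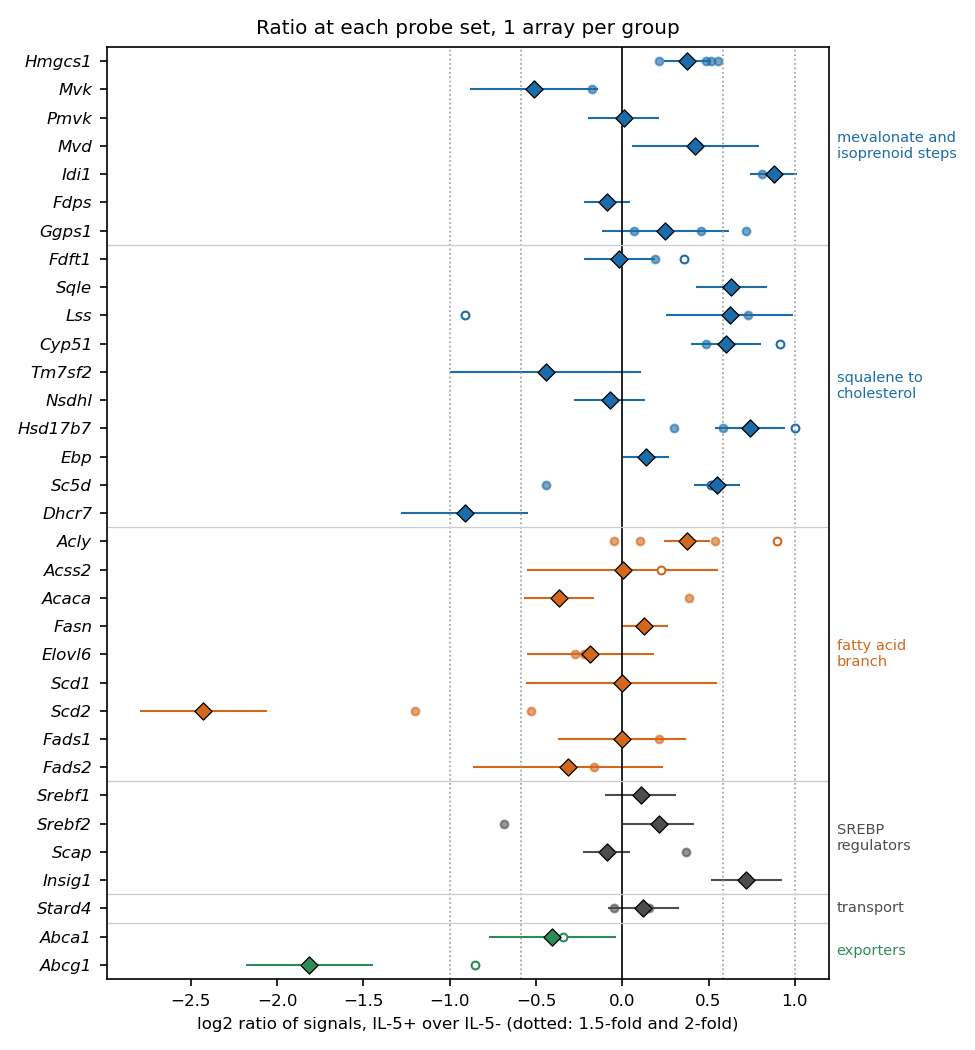
Log2 of the IL-5+ over the IL-5- signal at each probe set of each gene. Diamonds are the brightest probe set with a bar of 1 probe-set SD at its brightness, filled circles are other probe sets above the floor on both arrays, and open circles are above it on 1 array; the 5 Hmgcs1 points all lie right of 0, while Sc5d, Acaca and Srebf2 have points on both sides.

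In the fatty acid branch no gene was at least 1.5-fold higher and 1 of 9, Scd2, was lower, counts near the shares of all genes (7.89% and 11.9%). Acly, which splits citrate to give cytosolic acetyl-CoA for both branches, had 7830 against 6028 (0.38, SD 0.13) at its brightest probe set. The next Acly probe set gave 6228 against 5798 (0.10) and another 1284 against 1327 (-0.048), so its probe sets did not settle a difference. Acss2, which makes acetyl-CoA from acetate, was dim and level at 63.4 and 63.3. Acaca, the carboxylase of the committed step, had 835 against 1076 (-0.37, SD 0.21), but 107 against 82.3 (0.38) at its other probe set. Fasn, fatty acid synthase, was level at 4011 and 3669 (0.13, within the SD of 0.13).

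Among the elongase and desaturases, Scd2 stood apart. Elovl6, which lengthens palmitate to stearate, had 186 against 211 (-0.19), and its 3 probe sets ran from -0.27 to -0.19, all within the SD. Scd2, a stearoyl-CoA desaturase that makes monounsaturated fatty acids, had 212 in IL-5+ and 1143 in IL-5- cells (-2.43, SD 0.37). All 3 Scd2 probe sets were lower in IL-5+ cells, the others at 54.2 against 124 (-1.20) and 48.0 against 69.2 (-0.53). Of all 13133 named genes above the floor, 0.236% had a lower ratio than Scd2. Its paralogue Scd1 was dim on both arrays (48.2 and 48.3), where little can be measured. Fads1, a desaturase of polyunsaturated fatty acids, was equal at 354.6 and 355.1, and Fads2, its partner, was dim at 40.5 and 50.4.

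Among the regulators, Insig1 was the only gene past 1.5-fold. Insig1 is itself an SREBP target and retains SCAP in the endoplasmic reticulum. It had 2375 against 1444 (0.72, SD 0.21) at its single probe set. Srebf2 had 1198 against 1036 (0.21), but 274 against 441 (-0.69) at its second probe set, so no direction could be given. Srebf1, whose probe set does not separate its forms, had 1312 against 1219 (0.11), within the SD of 0.21. Scap was level at 2487 and 2649 (-0.091), with a dimmer probe set at 0.37. Stard4, a cholesterol carrier between membranes and an SREBP target, was level at 715 and 656 (0.12), and its 3 probe sets ran from -0.048 to 0.16. Of the genes of the SREBP factors and their escort, none was past 1.5-fold at its brightest probe set.

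Both sterol exporters were lower in IL-5+ cells. Abcg1, which passes cholesterol to high-density lipoprotein, had 130.4 against 458 (-1.81, SD 0.37). A dimmer Abcg1 probe set passed the floor only in IL-5- cells, at 25.2 against 65.7, and is bounded as at least 1.81-fold lower. Abca1, which loads lipid-poor apolipoprotein, had 131 against 174 (-0.41, SD 0.37), little more than the scatter between probe sets. A second Abca1 probe set passed the floor only in IL-5- cells, at 22.4 against 46.0.

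Set side by side, the sterol branch lay above the fatty acid branch. Its median log2 ratio over 17 genes was 0.25 (lower and upper quartiles -0.072 and 0.60), and that of the 9 fatty acid genes was -0.0030 (quartiles -0.32 and 0.0023), a difference of 0.25. This difference ranged from 0.23 to 0.44 under other processing and was 0.44 without probe sets named _s_at, _x_at or _a_at, which can read several transcripts. The sterol median was the value of Ggps1, whose probe sets disagree, and the fatty acid median that of Scd1, dim at 48.2 and 48.3. The median of all named genes above the floor was -0.048. In the sterol branch 11 of 17 genes lay above 0, and in the fatty acid branch 3 of 9, where 44.5% of all genes did. Of the genes with signals of 500 or more on both arrays, 8 of 11 sterol and 2 of 3 fatty acid genes were above 0 (47.1% of all genes that bright), with medians of 0.38 and 0.13. At 1.5-fold, 5 of 17 sterol genes were higher, against 7.89% of all genes, and 0 of 9 fatty acid genes, a count near that share. Only 3 fatty acid genes, Acly, Acaca and Fasn, were that bright, so most of the branch was measured with an SD of 0.37 or more. The branches overlapped: 6 sterol genes were below the fatty acid median and Acly was above the sterol median. With 1 array per group the difference between branches has no test, and the genes were chosen with earlier results of these data known. The branch difference was not seen among the bright genes of the further lists described below.

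Of the 33 sterol branch probe sets above the floor on both arrays, 25 were above 0, and of the 19 in the fatty acid branch, 7 were, where 46.4% of all 20174 such named probe sets were. The fatty acid count was thus near the share of all probe sets. Of the 10 sterol genes with at least 2 such probe sets, 7 had all of them above 0, namely Hmgcs1, Mvd, Idi1, Ggps1, Lss, Cyp51 and Hsd17b7. Mvk had both below 0, and Fdft1 and Sc5d were mixed. Of the 6 such fatty acid genes, none had all above 0, Elovl6, Scd2 and Fads2 had all below, and Acly, Acaca and Fads1 were mixed. Probe sets of a gene read the same RNA and are not replicates.

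**Figure D3:**
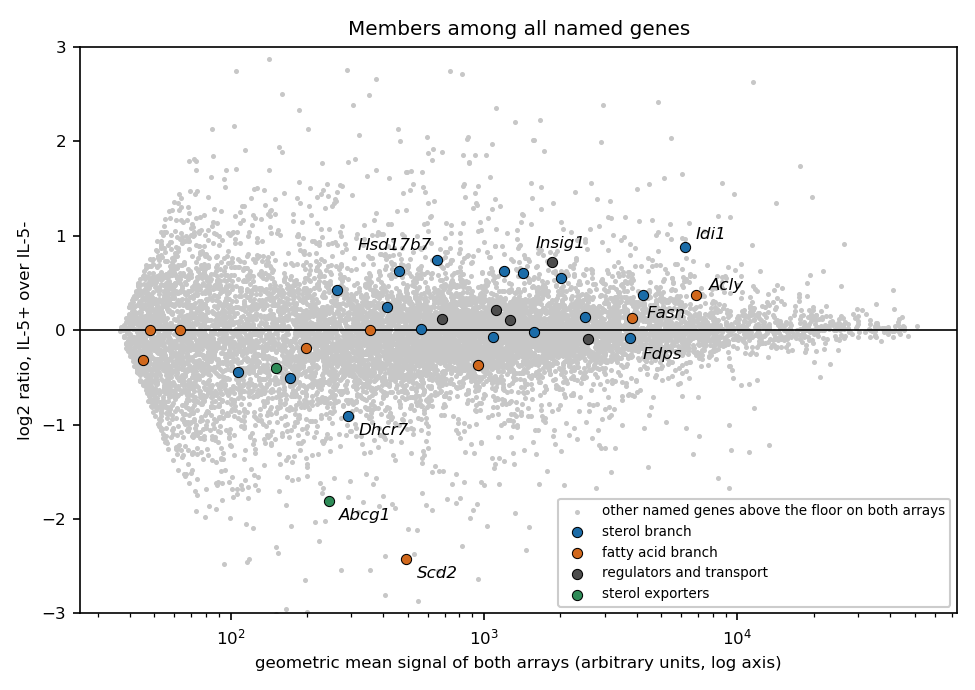
Log2 ratio (IL-5+ over IL-5-) against geometric mean signal (log axis) for the 10990 named genes above the floor on both arrays, with the members in colour; 17 genes lie beyond the plotted range of 3. Grey points spread more widely at low signal, and Idi1 (0.88) lies among bright genes that mostly sit near 0.

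Of 25 further sterol genes, 18 had a named probe set and 17 were above the floor, with a median of 0.13; 2 were at least 1.5-fold higher and 1 lower, not far from the shares of all genes (7.89% and 11.9%). Msmo1, a methyl oxidase of the demethylation that follows the Cyp51 step, had 2209 against 1209 (0.87, SD 0.21). Ch25h, which makes an oxysterol that restrains SREBP processing, was dim at 91.3 against 37.8 (1.27, SD 0.55), with the IL-5- signal just over the floor. Npc2, the lysosomal protein that hands on cholesterol from taken-up lipoprotein, had 6570 against 13174 (-1.004, SD 0.13), and all 4 of its probe sets were lower in IL-5+ cells, from -1.88 to -1.004. All of Msmo1, Ch25h and Npc2 thus differed beyond the probe-set scatter, with Npc2 in the opposite direction to the others.

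Of 26 further genes of fatty acid synthesis and elongation, 21 were above the floor (median 0.067), with 2 at least 1.5-fold higher and 4 lower, again not far from those shares. Mid1ip1, an activator of acetyl-CoA carboxylase, had 1014.5 against 640.2 (0.66). The others past 1.5-fold were dim: Me1, an NADPH source, had 71.7 against 43.1, and Acss1, the mitochondrial acetate enzyme, 77.4 against 147. The elongase genes Elovl4 (50.0 against 86.5), Elovl3 (at least 1.66-fold lower) and Elovl7 (at least 1.63-fold lower) were dim as well. Of the further fatty acid genes, 11 had signals of 500 or more on both arrays. Of these, 9 lay above 0 (47.1% of all genes that bright), with a median of 0.20. The further sterol genes that bright gave 6 of 9 and 0.21, so the branch difference was not seen there. Elovl1 (0.29), Elovl5 (0.32), Hacd3 (0.38) and Hsd17b12 (0.30) were higher by over 2 SD (SD 0.13). All their measured probe sets were above 0. Tecr (-0.12) and Slc25a1 (-0.024) were the bright genes below 0. Of 19 fatty acid oxidation genes, 17 were above the floor, with a median of 0.026, 2 at least 1.5-fold higher (7.89% of all genes) and none lower (11.9%). Cpt1a, which admits fatty acids to mitochondria, had 701 against 291 (1.27), with 0.42 at its lowest probe set, and Acadl, a long-chain dehydrogenase, 2294 against 1402 (0.71).

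Markers of CD4 T cells were present on both arrays, such as Cd3d (9116 and 13553) and Cd4 (454 and 471), and Il5 itself (37085 and 67.4) followed the sort. Summed over 8 CD4 T cell markers the signal was 49773 in IL-5+ and 57878.5 in IL-5- cells. Of these markers, 7 were below 0 and 1, Gata3, was above. With signals under the floor raised to it, dendritic cell markers summed to 647 and 830.0 over 8 genes, 5 of them below 0 and 2 above. Among these, H2-Aa was lower in IL-5+ cells (51.0 against 156), while Zbtb46 was higher (149.7 against 79.1). Monocyte and macrophage markers summed to 469 and 512 over 9 genes, 6 below 0 and 1 above, with Cd14 and Marco under the floor on both arrays. B cell markers summed to 251 and 289 over 6 genes, 3 below 0 and 1 above, with Cd79a and Cd79b under the floor on both arrays. These 3 sums were lower in IL-5+ cells, and so was the CD4 T cell sum. Many of the B cell and macrophage signals lay under or near the floor of 36.3. Scd2 and Abcg1, also lower in IL-5+ cells, are expressed by myeloid and B cells too. The part of such cells in the Scd2 and Abcg1 differences was not tested. Granulocyte and mast cell markers summed to 377 and 375, with 6 of 8 under the floor on both arrays, and all 4 adipocyte markers were under it. CD8 T cell markers summed to 347 and 245 over 2 genes, and stromal and endothelial markers to 529 and 384 over 6 genes, higher in IL-5+ cells.

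**Figure D4:**
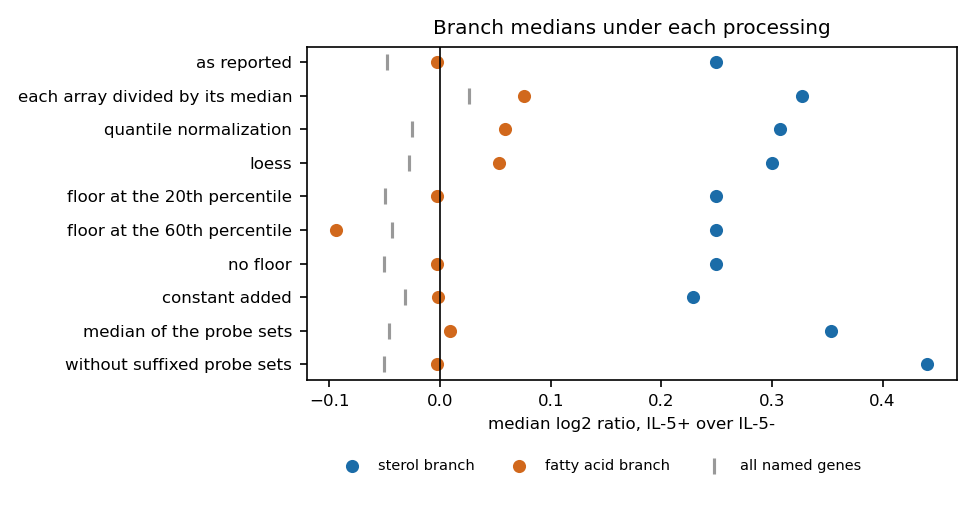
Median log2 ratio (IL-5+ over IL-5-) of the sterol branch, the fatty acid branch and all named genes under the reported processing and each of 9 alternatives. The sterol median stays between 0.23 and 0.44, to the right of the fatty acid median, which lies between -0.094 and 0.076 on both sides of 0.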

How the data were processed

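Per the labels' protocols, RNA of the 2 sorted groups was labelled with biotin and hybridised to Affymetrix arrays. The authors deposited a linear signal intensity for every probe set; GCOS, Affymetrix's own software, is named in the submitters' processing notes, with no version or settings. Means without the lowest and highest 2% were 496 and 497, so ratios compare a gene with the rest of its array.

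Of 45037 probe sets, 34945 had 1 gene symbol in the platform annotation, 932 several and 9160 were not listed. Signals under the 40th percentile of all signals (36.3) were raised to it. Each gene was read at its brightest probe set (by mean log2 signal), and counted as higher or lower at 2-fold and at 1.5-fold. All members were named, and of each further pathway list the genes past 1.5-fold, at most 6, with some bright further fatty acid genes added. The members and lists were chosen with earlier results of these data known. Scalings, floors and probe set choices were varied. The scripts were checked on simulated arrays. Precision is limited by having 1 array per group. Python 3.11.15, pandas 2.3.3 and statsmodels 0.14.6 were used.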

Additional observations from a re-analysis of the deposited data

How the results depend on the processing

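The counts of members past 2-fold were 0 higher and 2 lower under the 9 alternatives, and those past 1.5-fold were 5 to 7 higher and 3 lower. Division by the array median gave 7, when Sc5d (0.63) joined. Lss (0.58) was under the limit with the added constant, and Hsd17b7 (0.58) without suffixed probe sets. The fatty acid median changed sign with the scaling: it was 0.076, 0.059 and 0.053 with array medians, quantiles and loess. Under the reported processing the sterol median rests on Ggps1, whose probe sets disagree, and the fatty acid median on Scd1, which was dim. Scd2 and Abcg1 came to -1.20 and -1.33 with the median of their probe sets. Acaca, Fads1, Fdft1, Nsdhl, Scap, Scd1 and Srebf2 changed sign under at least 1 alternative, each from a value nearer to 0 than 1.5-fold.

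The background counts depended on dim signals. At 2-fold, 374 higher and 526 lower genes became 1325 and 1572 when the floor was the 20th percentile, 183 and 226 when it was the 60th, and 2058 and 2314 with no floor. At 1.5-fold, 1036 and 1563 became 2440 and 3014, 505 and 739, and 3141 and 3754. With the floor at the 60th percentile (112.8) 3 fatty acid genes were lost, Acss2, Scd1 and Fads2. No paired analysis was possible because each group is 1 array.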
